A study of Mus musculus with 19 samples.

Results

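Poly(A) RNA-seq of a short hairpin labelled shPou3f3os, expressed in mouse embryonic stem cells, is described across all genes beside the control hairpin of the same culture. The comparison rests on 4 of the 19 libraries of the series: shPou3f3os replicates 1 and 2 and shCtrl replicates 1 and 2. They were chosen by their labels, and every one of the 14942 entries that reached 1 FPKM in 2 or more of the 19 libraries was tested, out of 38424 entries in the deposited table. FPKM counts sequenced fragments relative to transcript length and to the mapped fragments of the library.

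All 4 libraries came from the line 46c, a mouse embryonic stem line commonly described as a Sox1-GFP reporter, grown for 4 days in N2B27, a serum-free medium that favours neural differentiation, with 5 nM retinoic acid. Another 3 libraries of the same line, medium and day carried hairpins labelled shNr2f1as (2 libraries) or shSox21os (1 library). The remaining 12 came from other lines after withdrawal of LIF, at day 4 or later. They carried hairpins labelled shEvx1as, shEVX1, shLhx1os or shFendrr, or control hairpins. The study targeted long non-coding RNAs (lncRNAs) that start next to a developmental gene and run away from it, and asked which genes change. The hairpin sequences are not given in the labels, and no library of unmodified 46c cells was analysed here.

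Pou3f3 (Brn1) is a POU class III transcription factor of neural progenitors and migrating neurons, a family that also holds Pou3f1 (Oct6), Pou3f2 (Brn2) and Pou3f4 (Brn4). Pou3f3os is transcribed from the same neighbourhood in the opposite direction, the arrangement called divergent. Retinoic acid binds nuclear receptors that switch on, among others, the 3′ Hox genes, and in neural cultures it directs progenitors towards hindbrain and spinal cord identities.

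Promoter sequences are shown for Pou3f3, whose start region faces the lncRNA, and for 3 called genes of the cellular stress list described below. Each is the 250 bases before the RefSeq gene start, 5′ to 3′ on the gene's strand, in RefSeq's GRCm38.p6 assembly, a build that differs from the mm9 positions given for expression values. Capitals mark CCAAT in Pou3f3 and TGATGNAA in the other 3, the form of the amino acid response element that ATF4 and C/EBP factors are known to bind, each searched on both strands.
Pou3f3 (chr1:42695518-42695767, plus strand): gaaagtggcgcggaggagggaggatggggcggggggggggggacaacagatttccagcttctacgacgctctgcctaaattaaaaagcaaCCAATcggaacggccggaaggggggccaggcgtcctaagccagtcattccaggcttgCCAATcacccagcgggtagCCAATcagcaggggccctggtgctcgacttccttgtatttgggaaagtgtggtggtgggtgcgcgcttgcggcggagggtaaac
Nupr1 (chr7:126625471-126625720, minus strand): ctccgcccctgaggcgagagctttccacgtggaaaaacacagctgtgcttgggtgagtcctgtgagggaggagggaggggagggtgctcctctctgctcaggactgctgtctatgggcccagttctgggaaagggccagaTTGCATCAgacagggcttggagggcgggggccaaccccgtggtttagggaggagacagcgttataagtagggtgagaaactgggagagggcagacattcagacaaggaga
Aars (chr8:111033592-111033841, plus strand): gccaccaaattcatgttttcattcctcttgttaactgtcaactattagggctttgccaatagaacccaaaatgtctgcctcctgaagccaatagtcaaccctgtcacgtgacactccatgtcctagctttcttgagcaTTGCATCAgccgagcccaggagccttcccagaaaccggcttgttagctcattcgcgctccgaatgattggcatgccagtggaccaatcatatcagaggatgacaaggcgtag
Slc7a11 (chr3:50443614-50443863, minus strand): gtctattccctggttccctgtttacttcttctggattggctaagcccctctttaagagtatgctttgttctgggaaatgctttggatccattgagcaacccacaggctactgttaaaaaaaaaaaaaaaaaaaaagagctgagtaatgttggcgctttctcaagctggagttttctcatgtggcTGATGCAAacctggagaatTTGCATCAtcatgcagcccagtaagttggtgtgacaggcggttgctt

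The Pou3f3 window held 3 CCAAT matches, 160, 103 and 84 bases before the start, and 33.8% of 32851 windows of the same length held at least 1. TGATGNAA was present in 3.45% of these windows. It matched once in Nupr1 (110 bases before the start), once in Aars (112 bases before) and at 2 places in Slc7a11 (66 and 47 bases before). It had no match in the windows of Atf4, Trib3 and Sesn2, the other called members of the list, and 9 of the list's 23 matched genes held it. A match is a run of letters and was not tested as a binding site.

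The targeted RNA did not separate the groups. The entry for Pou3f3os, 2610017I09Rik (mm9 chromosome 1, 42705045 to 42751670), lay at 2.40 and 4.13 FPKM in the libraries labelled shPou3f3os and at 5.20 and 1.98 FPKM in the controls. The groups overlapped, and the log2 change was -0.04 ± 0.39 (SE; limma adjusted p = 0.976). Depletion of the RNA is not visible in this entry, so the libraries are named by their labels throughout. The unnamed locus XLOC_000124 (chromosome 1, 42751588 to 42753888), which overlaps one end of this entry and may share its reads, lay at 3.72 and 3.86 FPKM against 6.76 and 5.68 FPKM in the controls (log2 change -0.59 ± 0.28, limma adjusted p = 0.255). The shNr2f1as libraries held 4.09 and 1.5 FPKM and the shSox21os library 2.08 FPKM, so the controls held the highest values of the 7 retinoic acid libraries.

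The unnamed locus XLOC_000123 overlaps Pou3f3 as well as 2610017I09Rik and XLOC_000124, so reads of these entries may not be separable. Pou3f3 (chromosome 1, 42753991 to 42757054) lay at 3.57 and 4.18 FPKM in the libraries labelled shPou3f3os, below both controls at 5.86 and 5.38 FPKM. The difference did not pass (log2 change -0.44 ± 0.20, limma adjusted p = 0.23), and the 3 other knockdown libraries lay lower still, at 2.50, 1.31 and 1.88 FPKM. None of the 3 other POU class III genes passed. Pou3f1, the most abundant, was at 17.9 and 18.9 FPKM against 11.7 and 24.3 FPKM in the controls. Pou3f2, a factor of neural progenitors, was at 2.27 and 3.19 FPKM against 4.35 and 2.48 FPKM, and Pou3f4 at 1.91 and 2.72 FPKM against 2.87 and 2.55 FPKM. Their limma adjusted p values were 0.912, 0.582 and 0.756, and the groups overlapped for all 3.

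The cultures carried the RNA of neural progenitors. The summed level of 8 progenitor markers (Sox1, Pax6, Nes, Sox2, Sox3, Zic1, Hes5 and Fabp7) was 582 and 584 FPKM in the libraries labelled shPou3f3os and 594 and 524 FPKM in the controls. Control replicate 2 carried more pluripotency RNA than the other 3 libraries. The sum of 7 embryonic stem cell markers (Pou5f1, Nanog, Zfp42, Esrrb, Klf4, Tdgf1 and Dppa5a) was 143 and 155 FPKM in the libraries labelled shPou3f3os, 130 FPKM in control replicate 1 and 659 FPKM in control replicate 2. It was 330 and 509 FPKM in shNr2f1as and 473 FPKM in shSox21os. In bulk RNA, a smaller share of cells of a type and less RNA per cell cannot be told apart. Among 3 fibroblast markers, Postn was listed at 0 in all 4 libraries, and the 3 together summed to 8.29 and 7.54 FPKM against 4.04 and 1.42 FPKM. The 3 trophoblast markers summed to at most 0.507 FPKM in any of the 4. The part of these differences in the changes below was not tested, beyond the values given without control replicate 2.

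Distances over all tested entries set the scale of the comparison. The root-mean-square difference on the log2(FPKM + 1) scale was 0.284 between the libraries labelled shPou3f3os, the smallest among all pairs of retinoic acid libraries, and 0.459 between the controls. From the libraries labelled shPou3f3os to control replicate 1 it was 0.408 and 0.399, and to control replicate 2 it was 0.553 and 0.55. To shNr2f1as replicate 1 it was 0.322 and 0.323, to the shSox21os library 0.378 and 0.365, and to shNr2f1as replicate 2 0.396 and 0.411, the last of which is more than the 0.399 to control replicate 1.

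**Figure D1:**
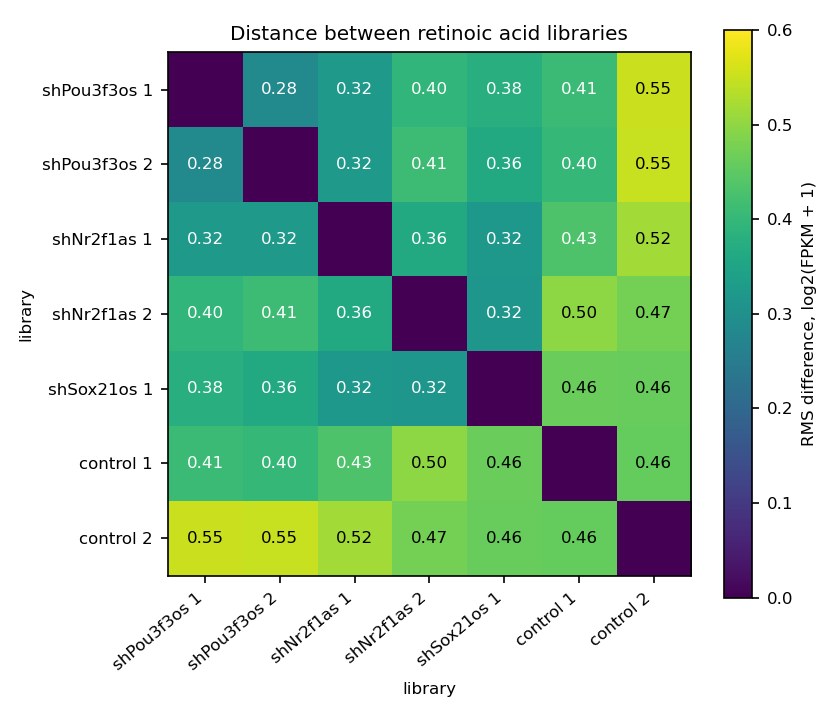
Root-mean-square difference in log2(FPKM + 1) over 14942 entries between each pair of the 7 retinoic acid libraries; both axes list libraries and colour gives the distance. The lowest off-diagonal value, 0.28, joins the libraries labelled shPou3f3os, and the highest, 0.55, joins each of them to control replicate 2.

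Against the controls, 346 entries passed limma's test with Benjamini-Hochberg adjustment at 0.05, or 2.32% of those tested. Of these 239 were higher (1.60%) and 107 lower (0.716%) in the libraries labelled shPou3f3os, and 3109 entries had an unadjusted p under 0.05. Called rises were larger and had lower control levels: their median log2 change was 1.01 and their median control level 3.78 FPKM, against -0.74 and 39.4 FPKM for the falls. These control levels are partly fixed by the call, because low control values favour a rise and high ones a fall. The log2(FPKM + 1) scale also limits falls from low levels. At least 2-fold on this scale were 121 of the rises and 28 of the falls. The median over all entries was 0.04. After each library was rescaled to a common total, 348 of 424 calls were higher (82.1%), against 69.1% here.

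**Figure D2:**
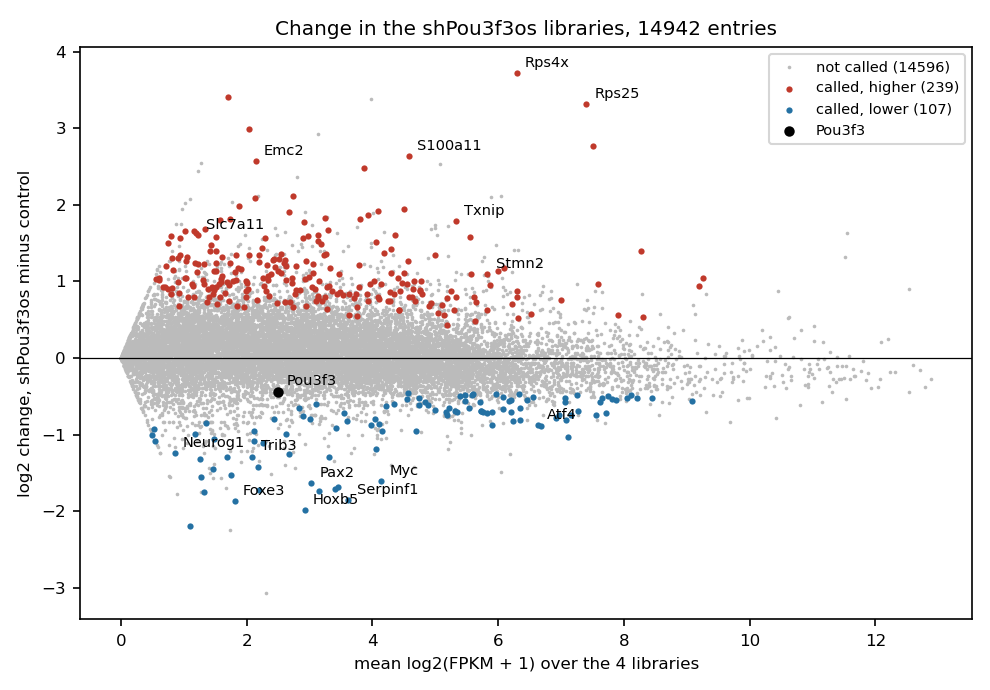
Each point is 1 of 14942 entries: the x axis is the mean log2(FPKM + 1) over the 4 libraries and the y axis the log2 change, libraries labelled shPou3f3os minus control. Called rises (239, red) lie mostly at low and middle levels, called falls (107, blue) reach high levels with small changes, and Pou3f3 (black) is not called.

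The call depends on single libraries. Without control replicate 2 it fell to 21 entries, 14 of them among the 346, and without control replicate 1 it was 1240, of which 303 were shared. Without replicate 2 of the libraries labelled shPou3f3os 3 entries passed, and without replicate 1 none did, with 2026 at an unadjusted p under 0.05. Fits on the 7 retinoic acid libraries or on these 4 alone, with 3 and 2 residual degrees of freedom, called 0 entries, with 2906 and 2638 at an unadjusted p under 0.05.

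The 15 largest rises included 3 ribosomal protein genes, and each of the 15 was higher in both libraries labelled shPou3f3os than in both controls. Rps4x (chromosome X, 99380282 to 99383710), an X-linked protein of the small ribosomal subunit, lay at 241 and 334 FPKM against 27.2 and 15.6 FPKM, the largest called rise of a named gene (log2 change 3.72 ± 0.42, limma adjusted p = 0.0126). Rps25 (chromosome 9), another small-subunit protein, lay at 479 and 593 FPKM against 131 and 20.9 FPKM (3.31 ± 0.62, limma adjusted p = 0.0302). Rps15a, a further one, rose at a lower level, from 2.92 and 1.78 FPKM to 10.2 and 12.6 FPKM. On a list of 24 other cytosolic ribosomal protein genes 1, Rpl7, rose (718 and 914 FPKM against 549 and 323 FPKM). Of all entries 1.60% rose, and the median of the 24 was -0.12. Ribosomal protein genes have many near-identical processed copies in the genome, and the sources used here do not say how reads were shared among them, so these values are uncertain.

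Another 3 of the 15 encode RNA-processing proteins. Magoh, a core protein of the exon junction complex, lay at 31.1 and 36.2 FPKM against 9.06 and 2.80 FPKM (a log2 change of 2.48 ± 0.41, limma adjusted p = 0.0258). Dkc1, the pseudouridine synthase of H/ACA ribonucleoproteins and telomerase, lay at 24.9 and 25.4 FPKM against 9.32 and 4.39 FPKM. Snrpb2, a protein of the U2 small nuclear ribonucleoprotein, lay at 11.6 and 14.2 FPKM against 4.97 and 1.75 FPKM. In all 3 the lower of the libraries labelled shPou3f3os was above the higher control by more than that control's own level. Emc2 (chromosome 15, 43308775 to 43359323), a subunit of the endoplasmic reticulum complex that inserts membrane proteins, was at 11.1 and 8.50 FPKM against 1.36 and 0.391 FPKM (2.57 ± 0.29, limma adjusted p = 0.0126). S100a11, a calcium-binding S100 protein, was at 67.4 and 50.8 FPKM against 15.7 and 4.55 FPKM.

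Enzymes acting on glutathione compounds or peroxides were also among the 15. Mgst1, a microsomal glutathione transferase, lay at 6.6 and 9.71 FPKM against 1.69 and 0.667 FPKM. Gpx8, a peroxidase of the endoplasmic reticulum, lay at 5.07 and 5.33 FPKM against 1.01 and 0.555 FPKM. Esd, an esterase that acts on S-formylglutathione, lay at 14.2 and 20.1 FPKM against 5.40 and 2.95 FPKM. The 3 changed by 2.09, 1.81 and 1.83 on the log2 scale. Txnip, the thioredoxin-interacting protein, was at 86.8 and 62.3 FPKM against 19.8 and 21.4 FPKM (1.79 ± 0.33, limma adjusted p = 0.0302), and its controls lay close together. Rpgrip1 and Tmem216, both proteins of cilia, rose by 2.12 and 1.99, and Clybl, a mitochondrial lyase, by 1.87. Tmem216 was listed at 0 in control replicate 2. Rps25, Rpgrip1, Clybl, Dkc1 and Txnip overlap another entry, and reads of the pair may not be separable.

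The 15 largest falls included several developmental transcription factors. Pax2 (chromosome 19, 44831884 to 44912359), a paired-box factor of the midbrain-hindbrain boundary, optic stalk and spinal interneurons, lay at 3.51 and 3.79 FPKM against 15.3 and 11.6 FPKM (a log2 change of -1.63 ± 0.20, limma adjusted p = 0.0126). Foxe3, a forkhead factor of the lens, lay at 0.301 and 1.57 FPKM against 6.07 and 5.34 FPKM. Prdm12 and Prdm13, PR-domain regulators of spinal and sensory neuron types, lay at 0.712 and 1.27 FPKM against 5.29 and 4.17 FPKM, and at 0.936 and 2.24 FPKM against 11.8 and 4.42 FPKM. None of these 4 exceeded 0.493 FPKM after LIF withdrawal, so the retinoic acid controls held their highest levels in the series. From the gene lists, Neurog1, a proneural factor, was at 0.134 and 0.223 FPKM against 1.95 and 1.61 FPKM (-1.24 ± 0.15, limma adjusted p = 0.0126). Only the controls reached 1 FPKM, with at most 0.47 FPKM in the other knockdown libraries and 0.13 FPKM after LIF withdrawal. Neurog1 thus entered the test only through the group where it was high, which favours a fall. Hes3, a Hes-family repressor of the neuroepithelium, was at 8.51 and 11.6 FPKM against 19.9 and 29 FPKM.

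Of the remaining falls, Myc (chromosome 15, 61816896 to 61821916), the growth regulator, lay at 7.38 and 11.1 FPKM against 35.2 and 25.1 FPKM (a log2 change of -1.61 ± 0.20, limma adjusted p = 0.0126). It was the only named gene still called when either control or shPou3f3os replicate 2 was left out, and it overlaps an accession-named entry. Serpinf1, the secreted factor PEDF, lay at 4.23 and 6.98 FPKM against 24.4 and 20.5 FPKM. Etv4, an ETS factor downstream of FGF signalling, lay at 5.44 and 5.16 FPKM against 10.9 and 19 FPKM, and both values were below those of the 17 other libraries. Plk3, a stress-responsive polo-like kinase, Nefh, the heavy neurofilament, Nxph4, a neurexophilin, and Cryba2, a crystallin, fell, with log2 changes of -1.69, -1.43, -1.55 and -1.45. Fam25c was listed at 0 in both libraries labelled shPou3f3os and at 2.32 and 5.25 FPKM in the controls, so no fold is given. Pax2, Plk3, Prdm12 and Nefh overlap other entries, as do Sesn2 and Dab2 below.

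**Figure D3:**
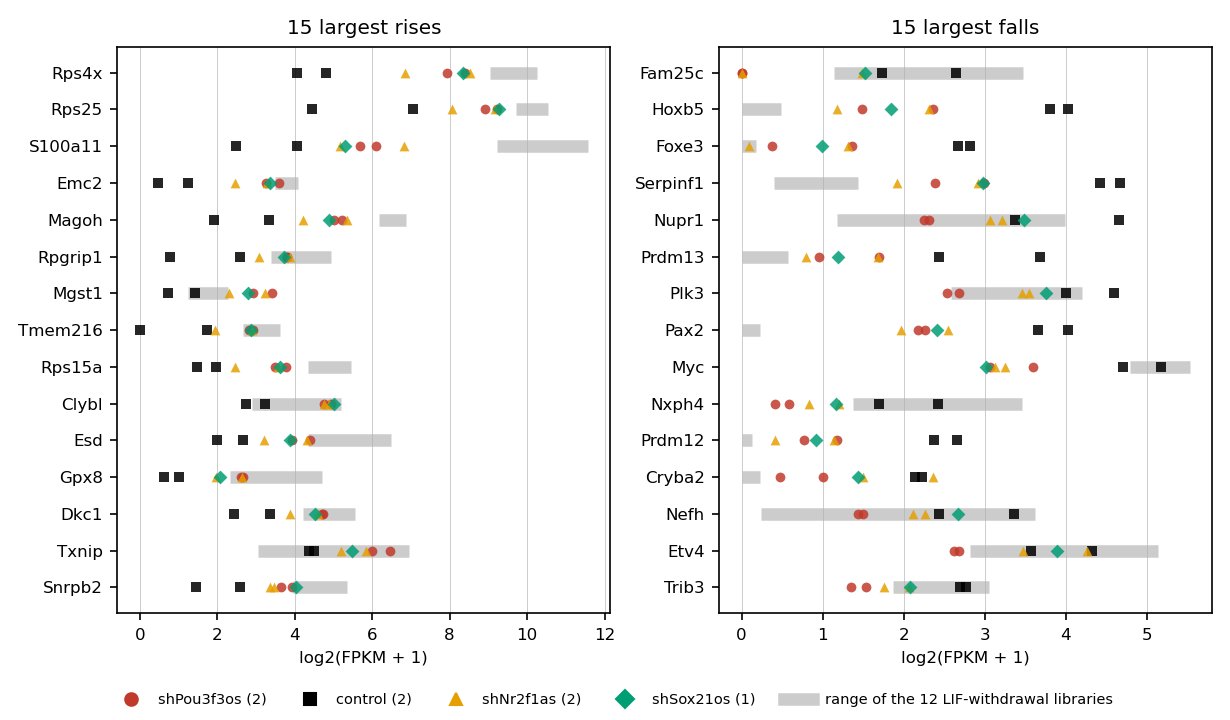
The 15 largest called rises (left) and falls (right): x axis, log2(FPKM + 1); each mark is 1 retinoic acid library, by hairpin, and grey bars span the 12 LIF-withdrawal libraries. For most rises the controls (black squares) stand to one side and the 3 other knockdown libraries lie near the libraries labelled shPou3f3os (red circles). Among the falls this holds for some, such as Hoxb5 and Pax2. In others, such as Plk3 and Etv4, the 3 other knockdown libraries lie towards or among the controls.

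Of the 34 gene lists, 14 held a called gene. A list holds many genes, and some genes are on more than 1 list. The share of lists therefore cannot be set against the 2.32% of single entries that were called. The integrated and unfolded protein stress list held the most. This pathway couples amino acid shortage or misfolded protein to the transcription factor ATF4. Of its 23 tested members 5 fell (0.716% of all entries did) and 1 rose (1.60% of all entries did). In both libraries labelled shPou3f3os 18 lay below both controls (21.6% of all entries did), and the median log2 change was -0.46. Atf4 (chromosome 15, 80085614 to 80087971) itself was at 71.8 and 72.7 FPKM against 135 and 133 FPKM (-0.88 ± 0.13, limma adjusted p = 0.0243). The replicates of each group lay close together and far from the other group.

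The other falls were known ATF4 targets or partners. Trib3, a pseudokinase induced in stressed cells, lay at 1.56 and 1.89 FPKM against 5.45 and 5.84 FPKM. Sesn2, a leucine sensor that restrains mTORC1, lay at 44.1 and 42.7 FPKM against 78.5 and 82.0 FPKM. It is also the one called gene of 19 listed p53 targets (2.32% of all entries were called). Nupr1, a stress-induced chromatin protein, lay at 3.97 and 3.76 FPKM against 9.38 and 24.3 FPKM. Aars, the alanyl-tRNA synthetase, named outside the rule for gene names after its values were seen, lay at 54.3 and 57.4 FPKM against 92.5 and 107 FPKM (a log2 change of -0.82 ± 0.15, limma adjusted p = 0.0288). The list did not move as one. Slc7a11, the cystine transporter and a textbook ATF4 target, rose from 0.640 and 0.0933 FPKM to 2.60 and 3.56 FPKM (1.60 ± 0.27, limma adjusted p = 0.0266). Gars and Ddit4, among the most abundant members, changed by -0.02 and 0.00 and did not pass. In the other 3 knockdown libraries Atf4 lay at 70.5, 88.3 and 71.7 FPKM, near the libraries labelled shPou3f3os. The list's median lay between -0.63 and -0.33 when single libraries were left out.

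Hox genes, the targets for which retinoic acid is best known, were lower in most members. Of 23 tested 2 fell (0.716% of all entries did) and 20 had a negative change (6568 of all 14942 did). Below both controls lay 13 (21.6% of all entries), and the median was -0.46, against 0.04 for all entries. Hoxb5 (chromosome 11, 96164826 to 96167435) lay at 1.8 and 4.15 FPKM against 13.0 and 15.3 FPKM (a log2 change of -1.99 ± 0.35, limma adjusted p = 0.0275). Hoxa5 lay at 10.4 and 13.2 FPKM against 18.3 and 26.5 FPKM (-0.86 ± 0.19, limma adjusted p = 0.047). Both belong to paralogue group 5 of the Hox clusters. Hoxb5 overlaps the entry AK002860, and Hoxa5 overlaps 2700086A05Rik and Hoxa3, so reads of these entries may not be separable.

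The genes of paralogue group 4, picked after their values were seen, lay below both controls in all 4 clusters without passing. Hoxa4 was at 19 and 16 FPKM against 33.7 and 26.2 FPKM, and Hoxb4 at 8.81 and 13.2 FPKM against 26.2 and 20.6 FPKM. Hoxc4 was at 11.9 and 18.5 FPKM against 34.6 and 24.9 FPKM, and Hoxd4 at 3.17 and 6.48 FPKM against 19.1 and 11.1 FPKM. Their limma adjusted p values were 0.101, 0.0793, 0.24 and 0.137. Hoxa3, more anterior and more abundant, was at 45.2 and 38.0 FPKM against 46.1 and 48.2 FPKM, and Hoxa2, which did not pass, lay above both controls at 28.9 and 29.8 FPKM against 23.7 and 18.2 FPKM. The Hox median lay between -0.7 and -0.55 when single libraries were left out.

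Of 23 tested retinoic acid response genes none passed limma's adjusted test, 7 had an unadjusted p under 0.05 (20.8% of all entries did), and their median was -0.17. Crabp1, a cytoplasmic retinoic acid binding protein, lay at 5300 and 5020 FPKM against 5100 and 3700 FPKM. Stra6, the retinol transporter, was at 114 and 75.2 FPKM against 52.6 and 44.1 FPKM, above both controls but short of the threshold (limma adjusted p = 0.0705). Stra8, a retinoic acid-induced gene of meiotic entry, was at 36.9 and 28.5 FPKM against 40.5 and 108 FPKM.

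Calls among neural identity genes were as follows, where 2.32% of all entries were called in either direction. Of 23 tested neural plate and progenitor genes 1 fell, Hes3 above, with a median of 0.11. Sox2 lay at 181 and 188 FPKM against 169 and 196 FPKM, and Msi1 at 262 and 274 FPKM against 270 and 211 FPKM, with overlapping groups. In the proneural and Notch list of 23, Notch2, a receptor, rose (49.8 and 45.9 FPKM against 33.7 and 28.1 FPKM; a log2 change of 0.62 ± 0.14, limma adjusted p = 0.0494), and Neurog1 and Hes3 fell. Of 18 tested neuron genes 14 had a negative change, 7 lay below both controls (21.6% of all entries did), and the median was -0.1. The 1 call was a rise. This was Stmn2, a microtubule regulator of growing axons, at 87.4 and 76.5 FPKM against 42.1 and 34.3 FPKM. Tubb3, the neuronal tubulin, lay below both controls at 29.3 and 32.0 FPKM against 48.6 and 49.7 FPKM (limma adjusted p = 0.167). Twist1, a neural crest and mesenchyme factor, fell to 7.44 and 6.18 FPKM from 14.9 and 12.5 FPKM. It was the 1 call among 13 tested glia and neural crest genes, of which 7 had a positive change and whose median was 0.04.

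No pluripotency gene passed limma's adjusted test: 0 of 20 core and 0 of 19 naive members, with 2 and 6 at an unadjusted p under 0.05, a level that 20.8% of all entries reached. Their medians were -0.29 and -0.35. Utf1, a chromatin protein of stem cells, lay at 48.1 and 50.7 FPKM against 30.7 and 258 FPKM. Klf2, a naive-state factor, lay at 9.65 and 12.9 FPKM against 7.84 and 71.5 FPKM. In both, control replicate 2 alone was high among the libraries of this comparison. Utf1 was at 89.1 and 283 FPKM in shNr2f1as and 187 FPKM in shSox21os. Klf2 was at 23.0 and 58.1 FPKM in shNr2f1as and 51.9 FPKM in shSox21os. Without control replicate 2 the core and naive medians turned to 0.30 and 0.24, and without control replicate 1 they were -0.94 and -1.02.

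Markers of other tissues held the calls below, where 2.32% of all entries were called in either direction. None was called among 25 tested primitive streak and mesoderm, 13 trophoblast, or 19 surface ectoderm and epithelium genes. Dab2, an endocytic adaptor of extraembryonic endoderm, rose to 35.2 and 27.5 FPKM from 15.4 and 7.75 FPKM. It was the 1 call among 13 tested endoderm genes, of which 6 had a negative change and whose median was 0.02. Tek and Sox18, an endothelial receptor and an endothelial factor, rose by 1.04 and 1.02 on the log2 scale from control levels under 1 FPKM. They were the 2 calls among 10 tested blood and endothelium genes, of which 6 had a negative change and whose median was -0.08. Col1a2, a fibrillar collagen, rose to 8.11 and 6.80 FPKM from 3.26 and 2.42 FPKM. It was the 1 call among 14 tested fibroblast and feeder genes, of which 7 lay above both controls (31.5% of all entries did) and whose median was 0.37. Among 20 tested imprinted genes none passed limma's adjusted test, 5 had an unadjusted p under 0.05 (20.8% of all entries did), and the median was 0.33. Igf2, the fetal growth factor, lay at 164 and 101 FPKM against 63.7 and 35.8 FPKM (limma adjusted p = 0.0879).

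**Figure D4:**
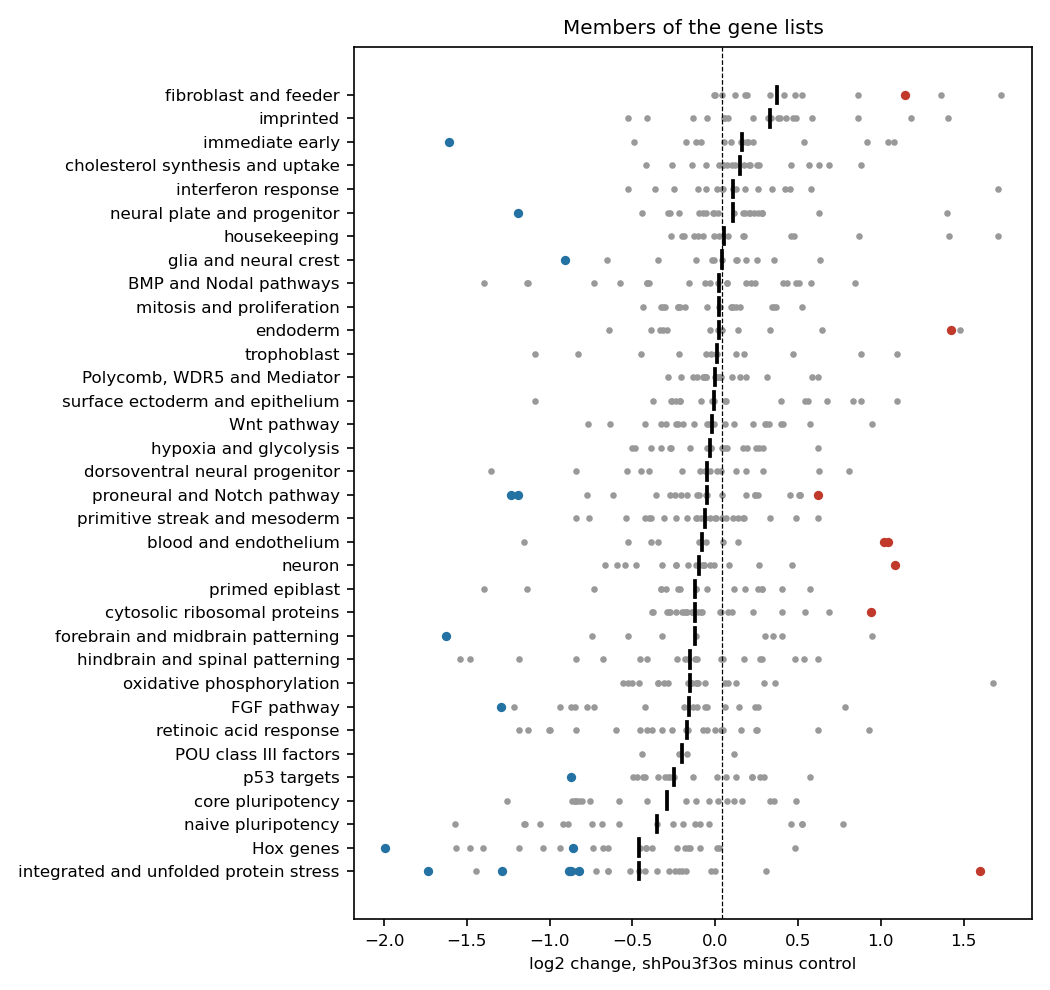
Members of the 34 gene lists: x axis, log2 change, libraries labelled shPou3f3os minus control; grey points did not pass, red points rose, blue points fell, black bars are list medians and the dashed line is the median of all entries, 0.04. The stress and Hox lists have the lowest medians, -0.46 each, and the fibroblast list the highest, 0.37.

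The called genes were then set beside the other hairpins of the same culture. All knockdowns of this culture share the same 2 controls, so values are given side by side. Every called entry had both libraries labelled shPou3f3os on the same side of both controls. The shares of called entries below therefore exceed those of all entries in part by construction. Of the 239 rises, 132 had both controls below all 17 other libraries of the series (6.97% of all entries), and 44 had both libraries labelled shPou3f3os above all 17 others (4.48%). Of the 107 falls, 56 had both controls above all 17 others (6.19%) and 16 had both libraries labelled shPou3f3os below them (1.77%). Among the named genes this held for the controls in 12 of the 15 largest rises and 6 of the 15 largest falls. Rps4x, for instance, was at 370, 114 and 325 FPKM in the other 3 knockdown libraries and at no less than 524 FPKM in any LIF-withdrawal library. Pax2 was at 4.83, 2.90 and 4.32 FPKM in the other 3, and Myc at 7.70, 8.48 and 7.06 FPKM.

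Direct tests, which do not use the controls' means, called 1 entry against shNr2f1as, 1 against shSox21os and 1 against the 3 other knockdown libraries pooled (0.00669% of entries each), with 820, 860 and 1136 at an unadjusted p under 0.05. None of the 346 entries called against the controls was among them. Over the called rises the median difference from the 3 other knockdown libraries was 0.21, and over the called falls it was -0.16. A p that misses the threshold does not show that these hairpins act alike. Among the 15 largest falls, Etv4 came closest against the pooled 3 libraries (limma adjusted p = 0.332), at 10.1 and 18.1 FPKM in shNr2f1as and 13.8 FPKM in shSox21os.

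The one called entry was the unnamed locus XLOC_012997 (chromosome 2, 161167429 to 161172534). Its level was 6.37 and 4.28 FPKM in shNr2f1as and 8.79 FPKM in shSox21os, and it was listed at 0 in the libraries labelled shPou3f3os, in both controls and in every LIF-withdrawal library. The libraries thus fell into those with and without the transcript, with no overlap. The entry passed the floor only through the libraries that held it. With only the 7 retinoic acid libraries in the fit the entry did not pass (limma adjusted p = 0.138 against shNr2f1as, 0.0545 against shSox21os and 0.13 against the pooled 3).

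Base composition differed between the called groups. Transcript GC content, taken from the longest GENCODE M21 transcript of each symbol, had a median of 46.9% (quartiles 43.8 to 50.4%) in the 186 named rises with a value. It was 54.9% (51.3 to 58.0%) in the 97 falls and 50.5% (45.7 to 55.2%) in 12768 entries not called. From the lowest to the highest of 10 equal classes of GC content, called rises went from 30 to 6 and called falls from 1 to 19, and the median change of all entries went from 0.09 to -0.06. After the GC trend of each library was removed, 389 of 13051 entries passed, 206 of them higher (53%), against 342 with 225 higher (65.8%) in the same entries without the correction. The part of GC content in single genes was not tested.

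**Figure D5:**
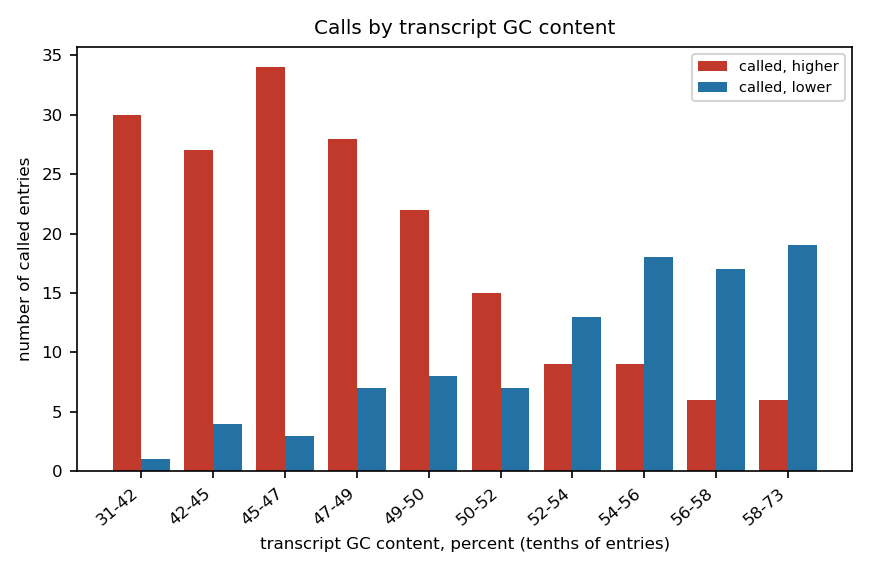
Number of called entries (y axis) in each of 10 equal classes of transcript GC content (x axis, percent). Red bars, called higher in the libraries labelled shPou3f3os, decline from 30 to 6, and blue bars, called lower, climb from 1 to 19.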

How the data were processed

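Per the labels' protocols, poly(A) RNA was isolated on magnetic beads and a stranded mRNA kit was used for the libraries. The deposited file is the authors' FPKM table, with 1 column per library. CASAVA, TopHat2 2.0.11 and the builds mm10 and mm9 are named per the submitters' processing notes. The sources used here name no quantifier or annotation and do not say whether strand was used, so overlapping entries may share reads. Of 18864 coding symbols matched on the same chromosome, 5.14% had an end within 1000 bp of the GRCm38 position, and 116 entries lie on random chromosomes, so positions are given as mm9, with 1-based starts.

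Values were analysed as log2(FPKM + 1), which understates changes of low genes. An entry was kept where 2 or more libraries reached 1 FPKM. The model, fitted by limma 3.58.1 (R 4.3.3) to the 19 libraries together, had 12 group means, a trended variance prior and 7 residual degrees of freedom. Tests were two-sided, with Benjamini-Hochberg adjustment over 14942 entries at 0.05, and log2 changes carry the model's SE. Nothing in the labels tells whether the replicates were separate cultures. The p-values therefore reflect only the spread among these libraries, which may be technical. The script was tested on simulated data.

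Totals were 595720 and 613949 FPKM in the libraries labelled shPou3f3os and 619180 and 644269 FPKM in the controls. Absolute depth was not derived, so no counting intervals are given. Steps between low values gave depths of 0.865, 0.914 and 1.05 relative to control replicate 1, from about 15% of the loci compared; precision is greater for abundant genes.

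The comparison, its gene lists and the naming rule were chosen with earlier results of these data known. Named genes were the target, Pou3f3 and its family, the 15 largest called rises and falls lying on 1 side of both controls, up to 5 called members of each list and up to 4 abundant members of lists described. Unnamed loci, RIKEN and Gm names, small RNAs and pseudogenes were left out of that ranking. Lists were described by counts and medians without a test. Alternatives covered the pseudocount, the floor, scaling, the variance prior, the libraries in the fit, quality weights, a replicate block and each library left out. A correction for GC content and a contrast with the 3 other knockdown libraries pooled were added after seeing the data.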

Additional observations from a re-analysis of the deposited data

Results flagged for a closer look

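The unnamed locus XLOC_012997 (mm9 chromosome 2, 161167429 to 161172534) passed the direct test between hairpins of the same culture when all 19 libraries set the spread. The libraries labelled shPou3f3os lay 2.64 below shNr2f1as on the log2 scale, a difference of -2.64 ± 0.17 (SE; limma adjusted p = 9.85e-05). Against the shSox21os library the difference was -3.29 ± 0.20 (limma adjusted p = 8.18e-05), where shSox21os is 1 library assumed to vary like the other groups, so the SE and p come from the spread of other groups. With only the 7 retinoic acid libraries in the fit the differences were of the same size and neither passed (limma adjusted p = 0.138 and 0.0545). All 3 libraries of the other 2 hairpins held the transcript, and the libraries labelled shPou3f3os and both controls were listed at 0. Every LIF-withdrawal library was also listed at 0, so the entry reached the floor only in the libraries where it was high. Apart from shNr2f1as, every replicate pair in the fit was listed at 0, and the SE and p rest largely on these zeros.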

How the results depend on the processing

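Among the counts against the controls, 346 entries became 161 with no floor on low values (27960 tested, 88 shared), 0 with only the 7 retinoic acid libraries (2906 at an unadjusted p under 0.05 by limma) and 0 with only the 4 libraries (2638). Leaving out single libraries gave 0 to 1240 calls. Other pseudocounts, a floor of 5 FPKM, both rescalings, no variance trend and quality weights gave 266 to 424, and removal of the GC trend 389. The replicate block, in which same-numbered libraries are paired, gave 474. Across entries, the deviations of same-numbered libraries correlated at -0.0191 between the libraries labelled shPou3f3os and the controls, at -0.0533 between the former and shNr2f1as, and at 0.303 between shNr2f1as and the controls. In the comparison with the controls the numbers were therefore not taken as pairs.

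The single call against shNr2f1as became 18 with no floor, and 0 with 7 libraries (750 unadjusted), with the GC trend removed (708) and over entries with a GC value (736), from which the unnamed locus is absent; leaving out libraries gave 1 to 5. Against shSox21os it became 174 with no floor, 4 other entries with 7 libraries (the locus itself no longer passed), 2 with quality weights, 8 with the replicate block, and 0 over entries with a GC value with (780) or without (765) the correction; leaving out libraries gave 1. Against the 3 pooled it became 105 with no floor, 0 with 7 libraries (947), 5 with quality weights, 4 with the replicate block, and 0 over entries with a GC value with (1004) or without (1014) the correction; leaving out libraries gave 1 to 3. Causes other than the entries tested were not tested.

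The change of 2610017I09Rik, -0.04, was 0.00 after rescaling to a common total and -0.57 to 0.49 when single libraries were left out, turning to 0.25 without shPou3f3os replicate 1 and 0.49 without control replicate 1. Pou3f3 kept its sign, at -0.54 to -0.35. Pou3f1 ranged from -0.38 (without control replicate 1) to 0.61, Pou3f2 from -0.53 to 0.09 (without control replicate 1), and Pou3f4 from -0.35 to 0.00 (without shPou3f3os replicate 1). Of the called named genes 7 passed without control replicate 2 (Rps4x, Emc2, Snrpb2, Prdm13, Pax2, Myc and Neurog1), 1 without shPou3f3os replicate 2 (Myc) and none without shPou3f3os replicate 1.

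With 2 libraries a group and 1 shared pair of controls, a difference between the control cultures and an effect of the hairpin cannot be told apart here. Depth limits low genes, and counting error is unknown.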

Other observations

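Below the direct comparison's threshold, a few entries separated the libraries labelled shPou3f3os from the 3 other knockdown libraries of the culture without overlap. They were picked from the leading entries of that test, though not strictly by rank. Sdhaf1, AK076839 and Hist2h3b, which ranked before Sfn, also separated the libraries without overlap, higher in those labelled shPou3f3os (limma adjusted p = 0.238 each). Pramef12, of the Prame family, lay at 0.953 and 0.740 FPKM in the libraries labelled shPou3f3os, at 0.301 and 0.894 FPKM in the controls, and at 2.69, 3.42 and 3.45 FPKM in the other 3 (log2 difference -1.18, limma adjusted p = 0.0954). Sfn, the epithelial 14-3-3 sigma protein, lay at 3.8 and 1.85 FPKM against 14.3, 11.7 and 5.13 FPKM in the other 3 (limma adjusted p = 0.238), with controls at 2.72 and 5.21 FPKM. The unnamed locus XLOC_002859 (chromosome 11, 11945751 to 11946794) was at 1.62 and 2.05 FPKM in the libraries labelled shPou3f3os and listed at 0 in the controls and in the other 3 (limma adjusted p = 0.191). XLOC_006022 (chromosome 13, 78338513 to 78354754) was at 19.4 and 18.8 FPKM, near its controls at 24.7 and 19.3 FPKM, against 10.2, 5.98 and 5.57 FPKM in the other 3 (limma adjusted p = 0.128).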
